A study of Mus musculus with 6 samples.

Results

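The genes described here make, take up and split N-acetylaspartate, or supply acetyl-CoA from acetate, citrate and acetylcarnitine, in resident macrophages of the mouse peritoneal cavity. They were chosen by symbol: all probe sets that the array annotation gives to 1 gene and whose gene is Aspa, Nat8l, Slc13a3, Acss1, Acss2, Slc25a1, Acly, Crat, Got1 or Got2. That is 10 genes of 18194 with a symbol of their own, and 28 probe sets of 45101. A further probe set carries Acss2 beside a second symbol and was left out. The array series holds 3 Gata6-KO samples, from mice with a conditional, floxed deletion of the transcription factor gene Gata6, and 3 Gata6-WT samples from wild type mice. Each sample was total RNA of cells pooled from 2 to 3 mice aged 7 weeks, collected by peritoneal lavage and sorted for high CD11b and for little or no MHC class II. The sources used here name neither the Cre driver nor the deleted part of Gata6. The series design describes the animals as sex-matched.

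N-acetylaspartate is made from aspartate and acetyl-CoA by the enzyme encoded by Nat8l, and aspartoacylase, encoded by Aspa, splits it into acetate and aspartate. The pathway is best known from the brain, where loss of ASPA in humans causes Canavan disease. Free acetate is joined to coenzyme A by the acetyl-CoA synthetases, ACSS2 in the cytosol and nucleus and ACSS1 in mitochondria. Citrate that leaves mitochondria through the carrier SLC25A1 gives acetyl-CoA when ATP citrate lyase, ACLY, cleaves it. Aspa is included as a gene known to depend on GATA6 in these cells, so its direction here is not independent evidence of that dependence.

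Values are linear probe set signals, and differences are Gata6-KO minus Gata6-WT on the log2(signal + 16) scale, which understates the change of low signals. Array medians lay between 79.7 and 88.5, and arrays of 1 genotype correlated at 0.964 to 0.972 across probe sets, against 0.93 to 0.951 between genotypes. Of 3 Gata6 probe sets, 2 were lower in Gata6-KO (log2 -1.15 and -0.88, the second not past the test when limma's fit of spread against signal, the eBayes trend, was left out, at adjusted p = 0.067) and 1 did not differ beyond its error (log2 -0.01 ± 0.21 SE), and where these probe sets lie relative to the deletion was not known. Of 9 macrophage markers 4 were lower in Gata6-KO (Fcgr1, Adgre1, Icam2 and Cd68), 1 was higher (Mertk) and 4 did not pass (Csf1r, Lyz2, Itgam and Cd14). Csf1r had 57372 ± 5147 in Gata6-KO and 55393 ± 7553 in Gata6-WT (SD, n = 3 each), and Lyz2 71833 ± 6910 and 72536 ± 11571, whereas Adgre1, which encodes F4/80, had 12149 ± 3204 and 43123 ± 3980. Fcgr1, which encodes the Fc gamma receptor CD64, had 148 ± 51.9 in Gata6-KO and 1110 ± 270 in Gata6-WT (SD, n = 3 each; 6.97-fold lower, limma adjusted p = 1.9e-04). Replicate 1 of each genotype carried male-type expression, with the Y-linked gene Eif2s3y at 3494 in Gata6-KO and 3674 in Gata6-WT against at most 15.3 in the other 4 arrays. The differences of Aspa and of the genes closest to it are also given without Gata6-KO replicate 1.

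Gata6-KO macrophages had less Aspa transcript and more Acss1 transcript than Gata6-WT macrophages, and no other gene of the 10 passed the test at any of its probe sets. Aspa was 5.89-fold lower and Acss1 3.24-fold higher. Of the 28 probe sets, 23 passed the filter on low signal, with at least 1 for each gene, and the 5 that did not had mean signals of at most 29.2. In limma, with Benjamini-Hochberg adjustment over all 27022 tested probe sets, 1 of the 23 was higher, 1 was lower and 21 did not pass. That is 8.7% of the members' probe sets, beside 10.8% called among all tested probe sets (5.12% higher and 5.67% lower). Groups did not overlap at 8 of the 23, or 34.8%, beside 31.0% of all tested probe sets. The median log2 difference was -0.16 over the 23 probe sets and -0.01 over all tested.

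**Figure D1:**
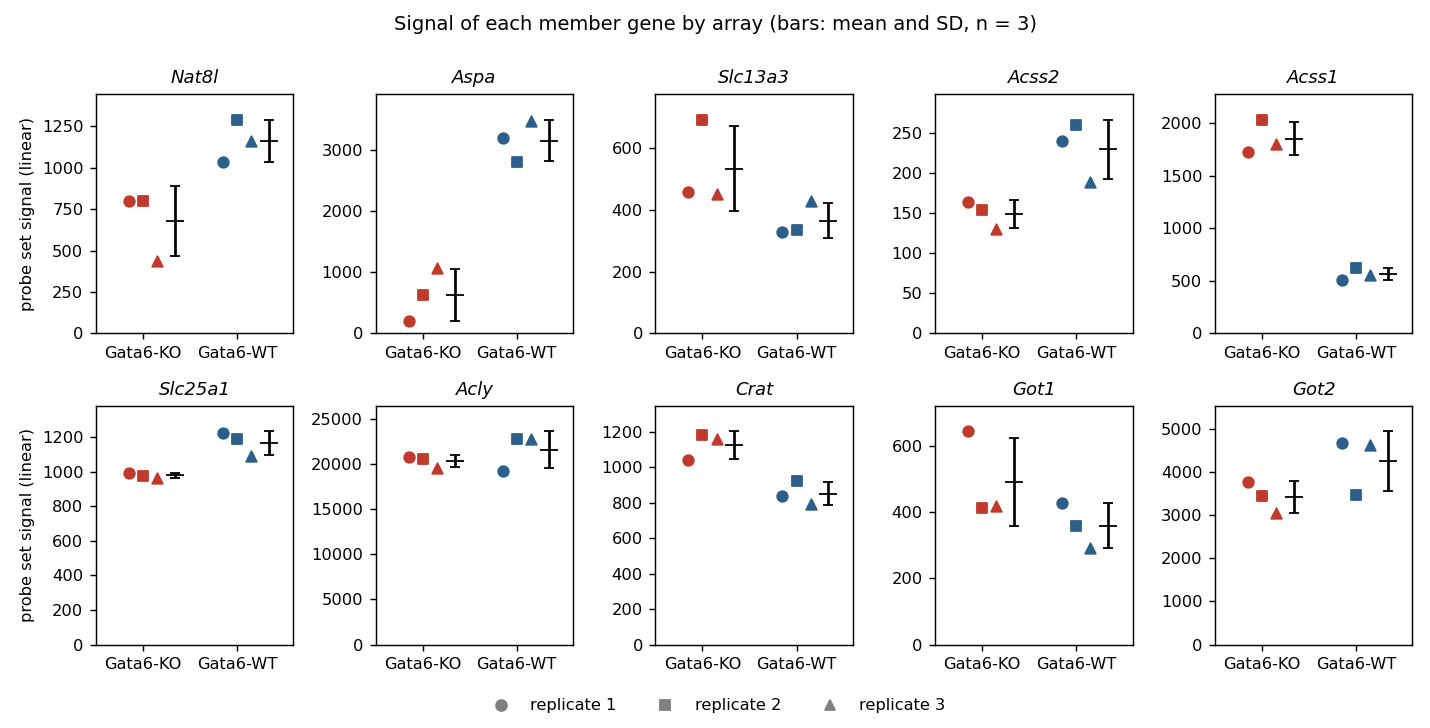
Linear probe set signal (vertical axes, each from 0) of the 10 genes in the 3 Gata6-KO arrays (red, left) and the 3 Gata6-WT arrays (blue, right), at the probe set with the highest mean. Marker shapes give the replicate number and black bars the mean and SD (n = 3). Aspa and Acss1 show the widest gap between genotypes, and the groups of Acly, Got1 and Got2 overlap.

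Aspa was measured by 1 probe set. Its signal was 208, 623 and 1063 in Gata6-KO replicates 1, 2 and 3, against 3199, 2799 and 3470 in the Gata6-WT replicates. The groups did not overlap: every Gata6-KO array was below the lowest Gata6-WT array, and the Gata6-KO arrays were spread far more widely among themselves. The means were 631 ± 428 in Gata6-KO and 3156 ± 337 in Gata6-WT (SD, n = 3), a log2 difference of -2.56 ± 0.45 (SE; 95% interval -3.57 to -1.55; limma adjusted p = 0.0064). An exact two-sided permutation test over the 6 arrays gave p = 0.1, the smallest that 3 against 3 arrays allow. By size of the fall Aspa ranked 67 among 12511 genes, and 146 without Gata6-KO replicate 1. In whole sorted pools, fewer cells that express a gene and less transcript per cell cannot be told apart.

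The size of the fall depended on replicate 1, where Gata6-KO kept 6.58% of the Gata6-WT mean, against 19.7% in replicate 2 and 33.7% in replicate 3. Set against the Gata6-WT array of the same number, the log2 difference was -3.85 in replicate 1, -2.14 in replicate 2 and -1.69 in replicate 3. Without Gata6-KO replicate 1 it was -1.93 (adjusted p = 0.0013), and in replicates 2 and 3 alone -1.92 (adjusted p = 0.0057). The fall thus passed the test with and without the arrays that carry male-type expression.

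Summed marker signals of other cell types did not share 1 direction: those of mast cells, of eosinophils and neutrophils, and of T and NK cells were lower in each Gata6-KO array than in any Gata6-WT array, and that of B cells was higher. Of the markers of these types only S100a8 passed the test. The summed signal of 7 mast cell markers was 349.7 to 503.6 in Gata6-KO and 550.9 to 646.8 in Gata6-WT. Mast cell Cpa3 averaged 159 ± 42.4 and 280 ± 27.6 (SD, n = 3 each; adjusted p = 0.051). Mast cell Cma1 averaged 79.5 in Gata6-KO and 198 in Gata6-WT, without overlap (adjusted p = 0.083). The other 5 of the 7 markers did not pass the filter on low signal, among them Fcer1a, at 20.4 or less on each array. For 7 eosinophil and neutrophil markers the sums were 576 to 871 in Gata6-KO and 1078 to 1718 in Gata6-WT. Most of the signal came from S100a8, which was lower (488 ± 186 and 1111 ± 332, adjusted p = 0.029). Against these sums, S100a9 (26.8 or less), Prg2 and Mpo had the higher mean in Gata6-KO. So did the mast cell markers Tpsb2 (71.7 ± 45.2 and 19.2 ± 10.2), Kit and Mcpt4. All of these opposing markers had overlapping groups. The 6 measured T and NK cell markers summed to 270 to 274 and 318 to 404. Only 2 of them passed the filter on low signal, and Cd3g and Ncr1 had the higher mean in Gata6-KO. Sums for 6 B cell markers were 385 to 405 in Gata6-KO and 249 to 372 in Gata6-WT, and 3 of the 6 passed the filter. Against the sum, Cd79b was lower in each Gata6-KO array (3.40 to 44.6, against 54.5 to 102). The Cd79a mean was lower too (26.5 and 48.0), with overlapping groups. Those of dendritic cell and of mesothelial or stromal markers overlapped between genotypes. No marker is listed at 0, since the lowest value in the deposited table is above 0. The part of other cells in the Aspa difference was not tested.

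The promoter sequences of Aspa and Acss1, the genes at which the genotypes differed, are shown as the 250 bases before the annotated start, 5′ to 3′ on the strand of the gene, from RefSeq (GRCm38.p6). That of Aspa lies at chr11:73324638-73324887 and that of Acss1 at chr2:150668241-150668490, both on the minus strand. Capitals mark the GC box GGGCGG, searched on both strands.
Aspa: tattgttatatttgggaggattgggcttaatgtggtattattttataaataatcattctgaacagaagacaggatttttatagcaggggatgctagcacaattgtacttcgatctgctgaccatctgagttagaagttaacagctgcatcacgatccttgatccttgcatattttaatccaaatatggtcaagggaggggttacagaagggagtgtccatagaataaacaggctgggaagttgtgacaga
Acss1: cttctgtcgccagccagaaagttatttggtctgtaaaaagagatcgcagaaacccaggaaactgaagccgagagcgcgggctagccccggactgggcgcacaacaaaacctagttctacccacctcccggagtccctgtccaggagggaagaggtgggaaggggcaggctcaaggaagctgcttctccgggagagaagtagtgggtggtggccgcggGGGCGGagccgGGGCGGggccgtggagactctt
The Aspa window had a GC content of 38.8% and no GC box, and the Acss1 window had 61.6% and 2 GC boxes, at 33 to 28 and 22 to 17 bases before the start. The median GC content of all 32851 windows in the table was 52.4%. A GC box occurred in 32.7% of them and in 5 of the 8 windows found for the 10 genes (Acly, Acss1, Acss2, Slc25a1 and Slc13a3). The GATA motif, searched on both strands as AGATAA with T also allowed as its first letter and G as its last, occurred in 0 of those 8 windows and in 26.5% of all windows. These are matches of letters in a short window and show neither binding nor its absence.

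Nat8l, which makes N-acetylaspartate, had 2 probe sets. At the one with the higher signal (1435842_at) the values were 801, 802 and 434 in Gata6-KO, against 1037, 1289 and 1162 in Gata6-WT. The groups did not overlap, but the log2 difference of -0.81 ± 0.23 (95% interval -1.32 to -0.30) just missed the threshold, with adjusted p = 0.05045. The call turned with the fit. Limma adjusted p was 0.043 with a pseudocount of 64, 0.039 with the stricter filter and 0.043 after median scaling. With the replicate number as a block it was 0.033. In all other variations this probe set did not pass. Adjusted p was 0.076 without the filter, 0.13 without the eBayes trend and 0.075 in replicates 2 and 3 alone. With 1 array left out it ran from 0.052 to 0.15. The other Nat8l probe set (1436702_at) had 309, 300 and 264 in Gata6-KO and 201, 277 and 448 in Gata6-WT, overlapping groups with a log2 difference of -0.01 ± 0.26. The 2 probe sets thus disagreed, and their mean had a log2 difference of -0.41 (adjusted p = 0.23).

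Slc13a3, a sodium-coupled dicarboxylate transporter that takes up N-acetylaspartate, gave no common direction. Its probe set with the highest signal (1438377_x_at) had 457, 692 and 451 in Gata6-KO and 329, 335 and 430 in Gata6-WT. The groups were separate, with Gata6-KO above Gata6-WT, but the log2 difference of 0.51 ± 0.20 did not pass (adjusted p = 0.15). The name of this probe set ends in _x_at, the manufacturer's mark for probes that can also match other sequences. The same mark is on another tested Slc13a3 probe set (1439385_x_at, log2 -0.54) and on the highest-signal probe sets of Acly and Crat. It is also on a low-signal Acly probe set (1438389_x_at), the second Acss1 probe set and the Aco1 probe set given below. The remaining tested Slc13a3 probe sets had log2 differences of -0.33 ± 0.32 and -0.54 ± 0.35, at signals of 155 or less.

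The acetyl-CoA synthetase genes differed from each other. Acss1, the mitochondrial enzyme, had 1724, 2032 and 1804 at its main probe set (1416617_at) in Gata6-KO, against 510, 621 and 555 in Gata6-WT. Every Gata6-KO array lay above every Gata6-WT array, and both groups were tight. The log2 difference was 1.70 ± 0.13 (95% interval 1.40 to 1.99, limma adjusted p = 6.7e-05). Between arrays of the same number, a pairing not given by the labels, it was 1.73, 1.69 and 1.67. Leaving out any 1 array gave 1.63 to 1.77.

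The rise of Acss1 rests on this probe set. A second one (1437583_x_at), with 28.6 to 143 in Gata6-KO and 52.3 to 99.9 in Gata6-WT, had a log2 difference of 0.06 ± 0.47, and a further one was below the filter, with 1.21 to 2.64 and 1.22 to 22.0. The mean over both tested probe sets was 0.88, with adjusted p = 0.059.

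Acss2, the cytosolic and nuclear enzyme, was lower in each Gata6-KO array at 1 of its 2 tested probe sets (1422479_at), with 164, 154 and 130 against 240, 260 and 188 in Gata6-WT. The log2 difference of -0.57 ± 0.21 did not pass (95% interval -1.03 to -0.10; adjusted p = 0.12). At the other (1422478_a_at) the groups overlapped, with 223, 104 and 131 in Gata6-KO and 194, 171 and 134 in Gata6-WT (log2 -0.16 ± 0.29). A further Acss2 probe set (1446542_at) was below the filter and went the other way. Its signals were 23.2 to 76.5 in Gata6-KO and 5.34 to 19.9 in Gata6-WT, groups that do not overlap.

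**Figure D2:**
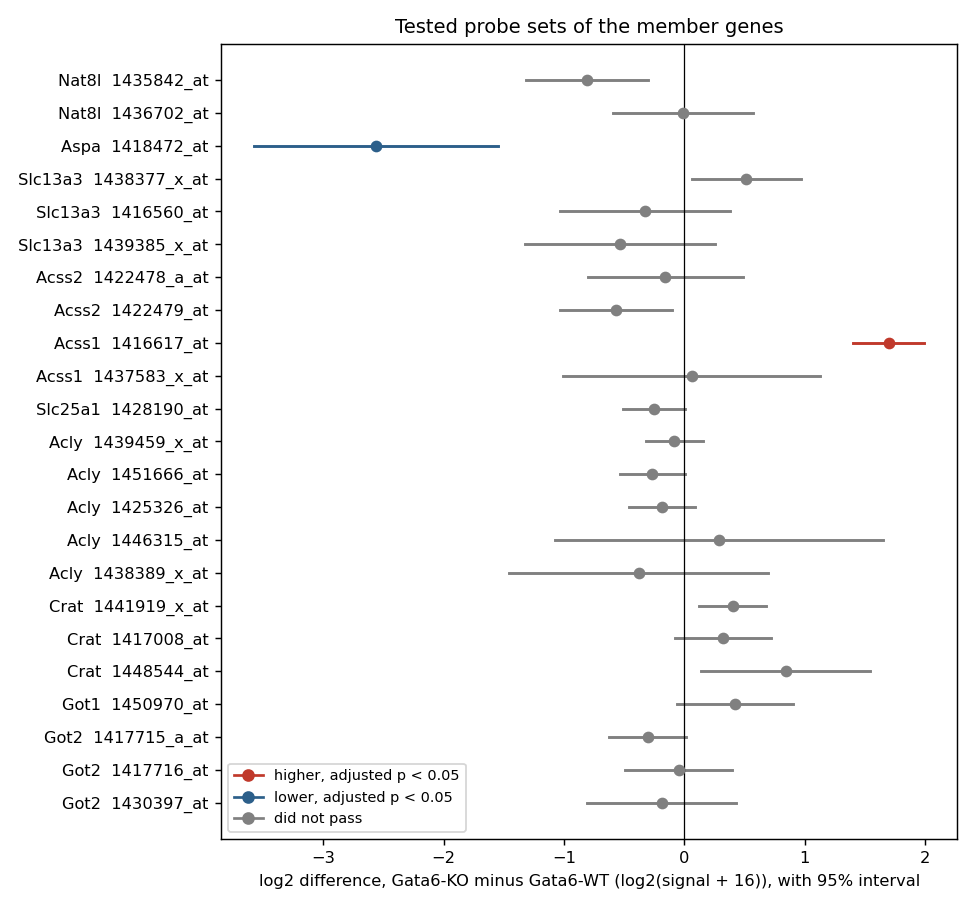
Log2 difference (Gata6-KO minus Gata6-WT, log2(signal + 16), horizontal axis) with its 95% interval for each of the 23 tested probe sets. Points are coloured by the limma test: Aspa is lower at -2.56, Acss1 is higher at 1.70 at 1 of its probe sets, and the other 21 did not pass.

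The citrate route showed no difference that passed. Slc25a1, the mitochondrial citrate carrier, had 993, 977 and 964 in Gata6-KO and 1221, 1189 and 1091 in Gata6-WT. The groups were separate by a small margin, with a log2 difference of -0.25 ± 0.11 (95% interval -0.51 to 0.01; adjusted p = 0.21). Acly had 3 probe sets of high signal, and at the highest (1439459_x_at) the values were 20771, 20639 and 19598 in Gata6-KO and 19230, 22836 and 22780 in Gata6-WT. Differences at these 3 were -0.08 ± 0.11, -0.27 ± 0.12 and -0.18 ± 0.12 on the log2 scale, and the lowest bound of their 95% intervals was -0.54. The second of them (1451666_at) passed in 1 variation, without Gata6-WT replicate 1 (log2 -0.38, adjusted p = 0.046). The other tested Acly probe sets had signals of 128 or less and intervals wider than 2 log2 units.

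Crat encodes carnitine acetyltransferase, which moves acetyl groups between acetyl-CoA and carnitine. All 3 of its probe sets had a higher mean in Gata6-KO, and none passed. At the probe set with the highest signal (1441919_x_at) the values were 1038, 1183 and 1156 in Gata6-KO and 835, 921 and 794 in Gata6-WT, groups that do not overlap, with a log2 difference of 0.40 ± 0.12 (95% interval 0.12 to 0.68; adjusted p = 0.075). The others had 0.32 ± 0.18 and 0.84 ± 0.31, with overlapping groups. Their mean over 3 probe sets was 0.52, with adjusted p = 0.058.

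The aspartate aminotransferases, which interconvert aspartate and oxaloacetate in the cytosol (Got1) and in mitochondria (Got2), did not pass either. Got1 had 646, 412 and 419 in Gata6-KO and 429, 358 and 293 in Gata6-WT, overlapping groups with a log2 difference of 0.42 ± 0.22 (95% interval -0.06 to 0.91). Got2 had 3788, 3454 and 3053 in Gata6-KO and 4692, 3471 and 4642 in Gata6-WT at its probe set with the highest signal, also overlapping (log2 -0.31 ± 0.14; 95% interval -0.63 to 0.02). Its other tested probe sets had -0.05 ± 0.20 and -0.19 ± 0.28.

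The genes whose signal followed Aspa most closely were Adcy6, Pla2g7, Col18a1, Olr1 and Cald1. Closeness was the mean absolute distance between profiles over the 6 arrays, each on the log2 scale and centred on its own mean, and it ran from 0.24 for Adcy6 to 0.32 for Cald1. Adcy6, an adenylyl cyclase, had 15.4, 95.6 and 97.3 in Gata6-KO and 356, 270 and 354 in Gata6-WT. Pla2g7, which hydrolyses the acetyl group of platelet-activating factor, had 2700, 8502 and 8898 in Gata6-KO and 26518, 25551 and 30967 in Gata6-WT. Replicate 1 was the lowest Gata6-KO array for all 5, as for Aspa. Since the 5 were chosen by closeness over the same 6 arrays, this is not a separate result. Lower Gata6-KO signal and passing the test also largely follow from that choice. Olr1, a receptor for oxidised low-density lipoprotein, had log2 -1.93, Col18a1, a collagen, -2.08, and Cald1, caldesmon, -2.51. Without Gata6-KO replicate 1 the log2 difference was -1.60 for Adcy6, against -2.21 with it, -1.66 for Pla2g7, against -2.22, -1.49 for Col18a1, -1.60 for Olr1 and -2.31 for Cald1, and all 5 passed. The Adcy6 call was lost without the eBayes trend (adjusted p = 0.057), and that of Col18a1 without the trend (0.070), without Gata6-WT replicate 1 (0.054) and without Gata6-WT replicate 3 (0.067).

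**Figure D3:**
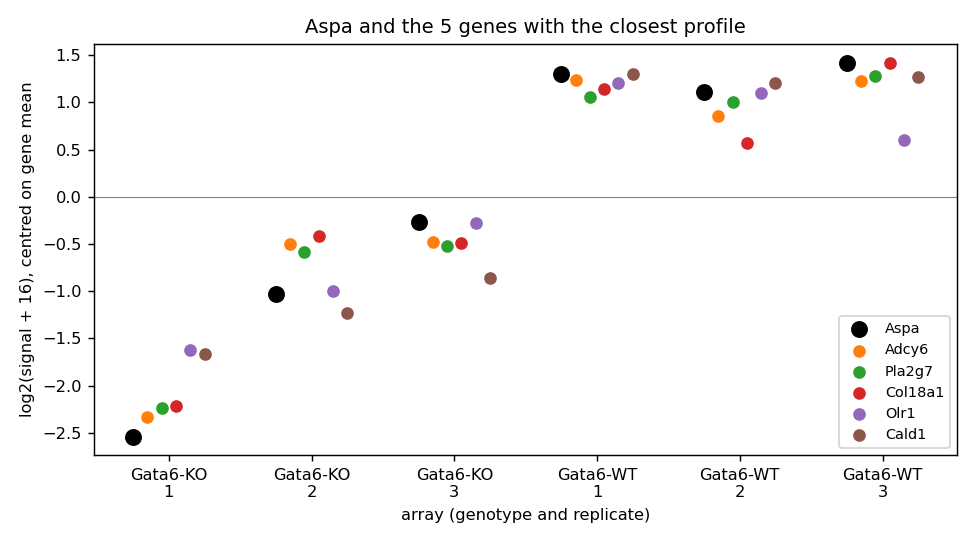
Log2(signal + 16) of Aspa (black) and the 5 genes closest to it, centred on each gene's mean (vertical axis), in each Gata6-KO and Gata6-WT array (horizontal axis). Gata6-KO replicate 1 is the lowest array for each gene, and the 3 Gata6-WT arrays lie above the mean. The 5 genes were chosen for this likeness.

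Around these 10 genes, lists of pathway genes were counted at 1 probe set per gene. Of 130 listed genes, 122 were on the array under their symbol and 105 were tested; 7 were higher and 8 lower in Gata6-KO. That is 14.3%, beside 13.1% of all 12511 genes tested, where 5.61% were higher and 7.46% lower. The list for acetylaspartate and acylated amino acid handling held 15 genes, among them some with other roles, such as Slc13a5 and Abhd14b. All 15 were on the array and 7 were tested. The others, Nat8 and Folh1 among them, did not pass the filter on low signal. Of the 7 tested, 4 were lower and none was higher, with a median log2 difference of -0.56 (all genes -0.04). Acy1, aminoacylase 1, which deacylates other N-acetyl amino acids, had 619 ± 33.3 in Gata6-KO and 915 ± 134 in Gata6-WT (SD, n = 3; log2 -0.54, adjusted p = 0.044). Asrgl1, an asparaginase and isoaspartyl peptidase, was at log2 -0.78 (adjusted p = 0.032). Aga, the lysosomal aspartylglucosaminidase, was at -0.56 (adjusted p = 0.031), and the hydrolase gene Abhd14b at -1.12 (adjusted p = 0.026). Each of these 4 calls was lost in 6 to 9 of 15 variations of the fit, among them 4 to 5 of the 6 fits that left out 1 array, with adjusted p of at most 0.14 for Acy1, 0.096 for Asrgl1, 0.21 for Aga and 0.12 for Abhd14b.

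Among citrate cycle genes and the enzymes that feed it, 5 of 22 were higher and none lower, with a median of 0.11. Me2, the mitochondrial malic enzyme, had 1327, 1365 and 1526 in Gata6-KO, against 528, 405 and 365 in Gata6-WT. The groups lay far apart (log2 1.68 ± 0.16, adjusted p = 2.0e-04), and the call held in all 15 variations. Dlst, the core of the 2-oxoglutarate dehydrogenase complex, had 3299 ± 360 in Gata6-KO and 1907 ± 277 in Gata6-WT (SD, n = 3; log2 0.79, adjusted p = 0.0064). Aco1, the cytosolic aconitase, was at log2 0.66 (adjusted p = 0.0070, and 0.058 without the trend, where the call was lost), and Idh1, the cytosolic isocitrate dehydrogenase, at 0.49 (adjusted p = 0.042), a call lost in 10 of 15 variations (adjusted p of at most 0.15). The fifth was the succinate dehydrogenase subunit Sdha at 0.39 (adjusted p = 0.046), named after its values were seen. In the pyruvate dehydrogenase list 1 of 13 was higher, the shared subunit Dld at log2 0.63 (adjusted p = 0.025, and at most 0.093 in the 6 variations that lost the call), and the 12 others did not pass.

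The list for acetyl-CoA use in lipid synthesis also holds genes with other roles, among them Acat1, Oxct1, Srebf1 and Srebf2. Of its 10 tested genes 2 were lower and 1 was higher, with a median of -0.14. Acaca, acetyl-CoA carboxylase 1, had 2069, 2061 and 1947 in Gata6-KO, against 3626, 3473 and 4571 in Gata6-WT. All Gata6-KO arrays lay below the Gata6-WT arrays (log2 -0.93 ± 0.13, adjusted p = 0.0016). Fasn, fatty acid synthase, had 219 ± 43.6 and 453 ± 64.1 (SD, n = 3 each; 2.01-fold lower, adjusted p = 0.010), and both calls held in all 15 variations. Acat1, the mitochondrial acetoacetyl-CoA thiolase, was higher at log2 0.59 (adjusted p = 0.011), a call lost without the trend (0.070) and without Gata6-KO replicate 2 (0.05032). Of 14 malate-aspartate shuttle and aspartate-using genes 1 was lower, Adss, an adenylosuccinate synthase that consumes aspartate, at log2 -0.58 (adjusted p = 0.033, and at most 0.12 in the 7 variations that lost the call). Of 28 genes for transfer or removal of acetyl groups on proteins 1 was lower, the mitochondrial deacylase gene Sirt5 at -0.73 (adjusted p = 0.029, and at most 0.13 in the 8 variations that lost the call). None of 13 genes for carnitine and fatty acyl transfer passed in limma, where 2 had an unadjusted p under 0.05 and the smallest adjusted p were 0.13 for Cpt2 (log2 0.39) and 0.15 for Acot8 (log2 0.36).

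**Figure D4:**
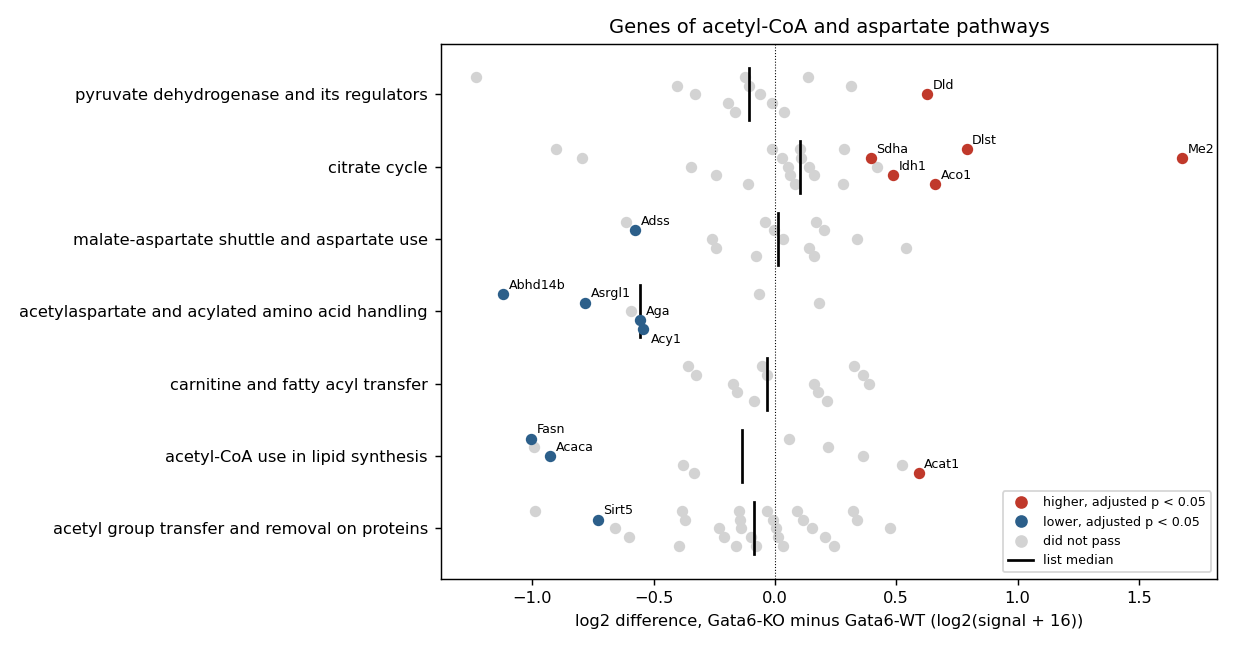
Log2 difference (Gata6-KO minus Gata6-WT, log2(signal + 16), horizontal axis) of each tested gene in 7 lists of acetyl-CoA and aspartate pathways, with the list median as a black bar. Genes that passed the limma test are named: Me2 lies farthest to the right at 1.68 and Abhd14b is the lowest of those that passed, at -1.12.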

How the data were processed

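Per the labels' protocols, biotin-labelled total RNA of each pool was measured on 1 array. The deposited values are linear intensities, made with MAS5 and affy per the submitters' processing notes, which give no version. The authors' intensity values had a 2% trimmed mean of 500 on each array, so they had been scaled to it before deposit. Low MAS5 signals are noisy, and detection calls were not used here. The number of arrays limits the precision. Nothing says how pools relate across genotypes.

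Signals became log2(signal + 16). Without 64 control probe sets, those with a mean above the 40th percentile (5.99) were tested, 27022 in all, with limma 3.58.1 in R 4.3.3 (lmFit, eBayes with trend; two-sided; Benjamini-Hochberg over all tested; threshold 0.05). Lists used the tested probe set with the highest mean of each gene. The array annotation gave 1 symbol to 34958 probe sets, several to 932 and none to 9211. The fit was tested on simulated data. Members, lists and tests were chosen with earlier results of these data known.

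Named are all members, the Gata6 probe sets, up to 4 passing genes of each list by size of change (otherwise 2 with the smallest p), the 5 genes closest to Aspa, and markers. Variations changed pseudocount (1, 64), filter (none, 60th percentile), scaling (quantile, median), trend, replicate block and arrays. For the count of pathway genes only, the tested probe sets of each gene were also averaged. Averaging the probe sets of each member, and ranking Aspa without replicate 1, are variations chosen once the data had been seen. Figures used matplotlib 3.10.9 in Python 3.11.15.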

Additional observations from a re-analysis of the deposited data

How the results depend on the processing

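Aspa kept its direction and its call in all 15 variations, with log2 differences from -3.06 to -1.92 and adjusted p from 0.0013 to 0.047, the highest without the eBayes trend. Of the members' tested probe sets 2 to 3 passed in each variation, and Aspa and Acss1 were among them each time. The number tested was 23, but 28 without the filter and 16 with the filter at the 60th percentile. Pathway genes that passed numbered 15, but 4 without the trend, 7 in replicates 2 and 3 alone and 7 to 10 with 1 array left out (7 without Gata6-KO replicate 1, Gata6-KO replicate 2 or Gata6-WT replicate 3, and 9 without Gata6-KO replicate 3). With the tested probe sets of each gene averaged, 13 passed, 5 higher and 8 lower, against 7 and 8 in the main fit. Over all probe sets 2916 passed, but 1459 without the trend, 1654 in replicates 2 and 3 alone and 1856 to 2476 with 1 array left out (the arrays whose omission moved it most were replicate 2 of Gata6-KO, leaving 1886, replicate 3 of Gata6-KO, leaving 1856, and replicate 2 of Gata6-WT, leaving 1893). The causes of these changes were not tested.

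Differences near 0 changed sign. Nat8l (1436702_at) was at 0.046 after quantile normalization and ran from -0.26 to 0.28 with 1 array left out. Acss1 (1437583_x_at) was at -0.082 in replicates 2 and 3 alone and ran from -0.39 to 0.53. Got2 (1417716_at) was at 0.00089 after quantile normalization and 0.053 in replicates 2 and 3 alone, and ran from -0.24 to 0.11. With 1 array left out, Acly (1446315_at) ran from -0.53 to 0.76, Acss2 (1422478_a_at) from -0.44 to 0.054 and Gata6 (1425463_at) from -0.17 to 0.18. The mean of the Slc13a3 probe sets was at -0.12, against 0.51 at the one with the highest signal.

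Same-numbered arrays deviated together at r = 0.13, 0.074 and 0.074, and each array correlated best with its own number, which is a hint from the data and not a pairing given by the labels. With the replicate block 3 of the members' probe sets passed, and Aspa was at -2.56 (adjusted p = 0.0031). Low signals limit the probe sets below about 150, whose intervals are wide.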

Other observations

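The cytosolic malic enzyme gene Me1, named after its values were seen, had 83.9, 130 and 122 in Gata6-KO, against 230, 163 and 285 in Gata6-WT, groups that do not overlap, with a log2 difference of -0.90 that did not pass (adjusted p = 0.059), while mitochondrial Me2 was higher at 1.68. Pcx, pyruvate carboxylase, also named after its values were seen, had 64.6 ± 12.6 in Gata6-KO and 124 ± 23.2 in Gata6-WT (SD, n = 3 each; log2 -0.80, limma adjusted p = 0.10). Pdk4, a kinase that inhibits pyruvate dehydrogenase, had 294, 211 and 998 in Gata6-KO and 951, 714 and 1296 in Gata6-WT, with overlapping groups and a log2 difference of -1.23 ± 0.47 (limma adjusted p = 0.14). Elovl6, which lengthens the fatty acids that FASN makes, had 68.5, 88.4 and 41.6 in Gata6-KO and 213, 96.7 and 139 in Gata6-WT (log2 -0.99 ± 0.35, limma adjusted p = 0.11). The other genes of the lipid synthesis list that did not pass ran from log2 -0.38 (Hmgcs1) to 0.52 (Oxct1). Pdk4 and Elovl6 were also named after their values were seen.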
